A study of Mus musculus with 12 samples.

Results

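The pro-death members of the Bcl2 family, taken by name, were 10 genes of the 29486 genes measured by mRNAseq in mouse B cells. Bax and Bak1 are the effectors, and Bbc3 (Puma), Pmaip1 (Noxa), Bcl2l11 (Bim), Bid, Bad, Bik, Bmf and Hrk are the 8 members that carry only the BH3 domain. Splenic B cells of C57BL/6Babr mice, isolated with a kit, were cultured in 3 conditions with 4 libraries each. Cells of the LPS condition received LPS at 10 µg/ml for 48 h. Cells of the LE condition received LPS and then etoposide at 20 µM for 4 h. Cells of the LEKU condition received LPS for 47 h, the ATM kinase inhibitor KU55933 at 10 µM for 1 h and then etoposide at 20 µM for 4 h. Etoposide traps topoisomerase II on cut DNA and so causes DNA breaks. All 12 libraries therefore came from cells activated with LPS, and there were no libraries with KU55933 and without etoposide. The labels do not say whether cells with LPS alone were cultured for the 4 h that the etoposide took. They do not give the age of the mice, or whether the 4 libraries of a condition came from separate mice.

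The mitochondrial pathway of apoptosis is set by the balance between members of this family. Bax and Bak1 form pores in the outer mitochondrial membrane, through which cytochrome c leaves and caspases are activated. BH3-only proteins either bind and activate the effectors or occupy the pro-survival proteins, such as Bcl2 and Mcl1, that hold the effectors back. After DNA damage, the kinase ATM stabilizes p53, and Bax, Bbc3 and Pmaip1 are well-known p53 target genes. In resting and activated B lymphocytes, Bcl2l11 limits survival.

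The members share the core of the BH3 domain, the stretch with which they bind their relatives. The coding sequence of this core is printed here because it is what unites genes whose mRNA levels differed in opposite directions. A leucine codon, any 3 codons, a glycine, alanine or serine codon and an aspartate codon were searched for in the longest complete coding sequence of each gene in GENCODE M21, on the coding strand. A match was found 1 time in each of the 9 members read, all but Pmaip1, and the capitals mark the leucine codon and the last pair of codons. The same short pattern was present in 34.0% of 21656 coding genes, so the match alone does not define a BH3 domain. Positions are on GRCm38, within coding exons.
Bax, chr7:45466006-45466023, minus strand, codons 63 to 68: CTCcggcgaattGGAGAT
Bak1, chr17:27022540-27022557, minus strand, codons 76 to 81: CTTgctctcatcGGAGAT
Bbc3, chr7:16313773-16313790, plus strand, codons 141 to 146: CTGcggcggatgGCGGAC
Bcl2l11, chr2:128147150-128147167, plus strand, codons 150 to 155: CTGcggcggatcGGAGAC
Bid, chr6:120897298-120897315, minus strand, codons 90 to 95: CTCgcccaaataGGCGAT
Bad, chr19:6950792-6950809, plus strand, codons 151 to 156: CTCcgaaggatgAGCGAT
Bik, chr15:83543084-83543101, plus strand, codons 55 to 60: CTGgcctgcatcGGCGAT
Bmf, chr2:118545109-118545126, minus strand, codons 224 to 229: CTTcagtgtattGCAGAC
Hrk, chr5:118169891-118169908, plus strand, codons 37 to 42: CTGcaggcgctgGGCGAC

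The fifth codon encoded glycine in Bax, Bak1, Bcl2l11, Bid, Bik and Hrk, alanine in Bbc3 and Bmf, and serine in Bad. Bbc3 and Bmf, which share alanine there, were on opposite sides in the comparison of etoposide with LPS alone.

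Promoter windows from 250 bases before to 50 bases after the start of transcription were read from RefSeq (GRCm38.p6) for 8 members, in 14 windows. No window of Pmaip1 or Bik was read, so whether their promoters hold the half-site described next was not tested. The 10-base p53 half-site, searched on both strands as a pattern that is its own reverse complement, was present in 2 of the 14 windows. Each of them held 1 half-site, so the match alone does not define a p53 site. At least 1 half-site was present in 8.36% of all 32851 windows of the same length. The windows with a match belonged to Bax, the mRNA of which was higher with etoposide, and to Bmf, the mRNA of which was lower. Bmf has 3 windows, and the match is in the innermost, the start of which lies downstream of the BH3 core printed above; the window at the outer start of the gene holds no match. Both windows with a match are shown, with the match in capitals, 201 bases before the start in Bax and 213 bases before it in Bmf.
Bax, chr7:45466849-45467148, minus strand: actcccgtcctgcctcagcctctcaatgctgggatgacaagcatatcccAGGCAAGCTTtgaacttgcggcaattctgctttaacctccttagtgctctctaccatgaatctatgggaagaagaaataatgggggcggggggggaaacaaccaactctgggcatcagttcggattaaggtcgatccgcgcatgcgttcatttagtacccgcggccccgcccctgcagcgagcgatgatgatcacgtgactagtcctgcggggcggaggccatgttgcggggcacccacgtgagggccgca
Bmf, chr2:118544538-118544837, minus strand: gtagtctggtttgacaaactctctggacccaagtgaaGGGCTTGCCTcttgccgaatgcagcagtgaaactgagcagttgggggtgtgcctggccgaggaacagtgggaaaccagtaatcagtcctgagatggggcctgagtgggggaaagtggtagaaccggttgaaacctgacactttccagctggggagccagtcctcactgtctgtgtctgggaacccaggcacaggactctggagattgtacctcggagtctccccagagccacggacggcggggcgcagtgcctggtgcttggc

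The half-site was not present in the 3 windows of Bbc3, which says nothing about sequence outside them. The GC content of the members' windows ran from 53.3% to 78.0%, beside a median of 52.7% over all windows.

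The deposited table gave 1 fitted mean for each gene and condition, multiplied by the size of each library. The 4 libraries of a condition therefore differed by the same factor for every gene, to within 1.95e-14 on the log2 scale. They carried no spread between replicates, and no test between conditions could be made. The values of single libraries are printed for the leading members as deposited, and their order or overlap between conditions restates the fitted means and the library sizes and is no sign of agreement between replicates. A level here is the normalized count of the condition after division by the size of the library. A difference was read as past the rule of size at 2-fold, which is 1 on the log2 scale after adding 1 to each level. The 95% intervals are exact intervals of the counting of reads, covering counting error only, and do not contain the variation between cultures. Column totals were 20739978 to 23935658 normalized counts with LPS, 22523516 to 30575195 in LE and 20400994 to 25052093 in LEKU. A level of at least 10 in at least 4 libraries was reached by 15571 genes and by 9 of the 10 members, all but Hrk. Bik passed only through LE.

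Markers of the labelled cell type were at high levels. The 5 B-cell markers read (Cd79a, Cd79b, Ms4a1, Pax5 and Cd22) summed to 104673 with LPS, 54662 in LE and 52537 in LEKU. All 5 were lower in LE than with LPS, and Pax5 and Cd22 were lower past 2-fold. Of all genes past the filter, 6.14% were lower past 2-fold, and their median log2 difference was -0.03. None of the 6 T-cell markers passed the filter, with sums from 8.68 to 9.74. The 6 markers of macrophages and monocytes passed and summed to 417 with LPS, 465 in LE and 427 in LEKU, and in LE against LPS 4 were higher and 2 lower. Csf1r and Cd14 were higher past 2-fold, as were 14.1% of all genes past the filter. In LPS, LE and LEKU, Csf1r was at 4.17, 10.3 and 9.63 and Cd14 at 5.17, 24.0 and 40.2. Csf1r passed the filter only through LE, where it was high, so its difference was in part fixed by the filter. Itgam was at -0.78 and Adgre1 at -0.12 on the log2 scale. Neutrophil markers summed to 4.77, 19.9 and 9.31 in the same order, with S100a8, S100a9 and Ly6g under a level of 1. Mpo, the neutrophil marker that passed the filter, was at 1.26, 13.8 and 3.32. It passed only through LE, where it was high. Markers of red blood cells summed to 218, 184 and 115, and those of NK cells to 23.6, 29.1 and 25.1. The marker sums moved with the conditions, and their part in the differences described for the members was not tested. In bulk samples such as these, fewer cells of a type and less RNA per cell cannot be told apart. Each condition also had Illumina indexes of its own, so that index and condition cannot be told apart.

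Etoposide was first compared with LPS alone, which asks how the pro-death genes stood after DNA damage. Pmaip1, Bbc3, Bax and Bik were higher past 2-fold, Bid and Bmf were lower past 2-fold, and Bcl2l11, Bad and Bak1 stayed within 2-fold. Members were therefore found on both sides. Of all 15571 genes past the filter, 14.1% were higher past 2-fold and 6.14% were lower, so 4 and 2 of 9 members stand beside these shares. The median log2 difference of the 9 members was 0.88, beside -0.03 over all genes. That median includes Bik, which passed the filter only through LE, where it was high, and so was in part fixed by the filter. Of the 8 members with a level of 10 or more in every condition, which leaves out Bik, 3 were higher and 2 lower past 2-fold. Among the 13964 genes with that level, 9.60% were higher and 6.21% lower. The split of all genes past 2-fold depended on the scaling, since 69.6% of them were higher with the size factors used here. That share was 56.0% with quantile normalization, 78.7% with library totals and 88.6% in the columns as deposited.

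Bax encodes the effector that moves from the cytosol to mitochondria. Its deposited values were 1802, 1999, 2080 and 1874 normalized counts in the 4 LPS libraries and 5494, 6157, 7457 and 5969 in LE. In the 4 LEKU libraries they were 4397, 4958, 5312 and 5399. After division by library size, the level of Bax was 2200 with LPS, 5611 in LE and 4802 in LEKU. The log2 difference of LE to LPS was 1.35 (95% counting interval 1.31 to 1.39), or 2.55-fold, and 89.9% of the genes past the filter had a lower difference.

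Bak1, the effector that sits in the mitochondrial membrane, stood the other way. Its deposited values were 1218, 1352, 1406 and 1267 with LPS, 778.5, 872.5, 1057 and 845.8 in LE, and 858.8, 968.5, 1038 and 1055 in LEKU. The levels after division were 1487, 795 and 938, highest with LPS, and the log2 difference of LE to LPS was -0.90 (-0.96 to -0.84), within 2-fold. The ratio of Bax to Bak1 per kilobase of exon, into which no scaling between conditions enters, was 2.26 with LPS, 10.8 in LE and 7.82 in LEKU. The size of this ratio depends on the exon lengths used, while its change between conditions does not. Bak1 shares exonic bases with Ggnbp1 on the other strand, which was at levels of 77.9 to 103. The strand setting of the counting is not given in the sources used here, so it is not known how reads of such a pair were counted. Bax shares exonic bases with Gm45808 on its own strand, for which no value was used here.

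**Figure D1:**
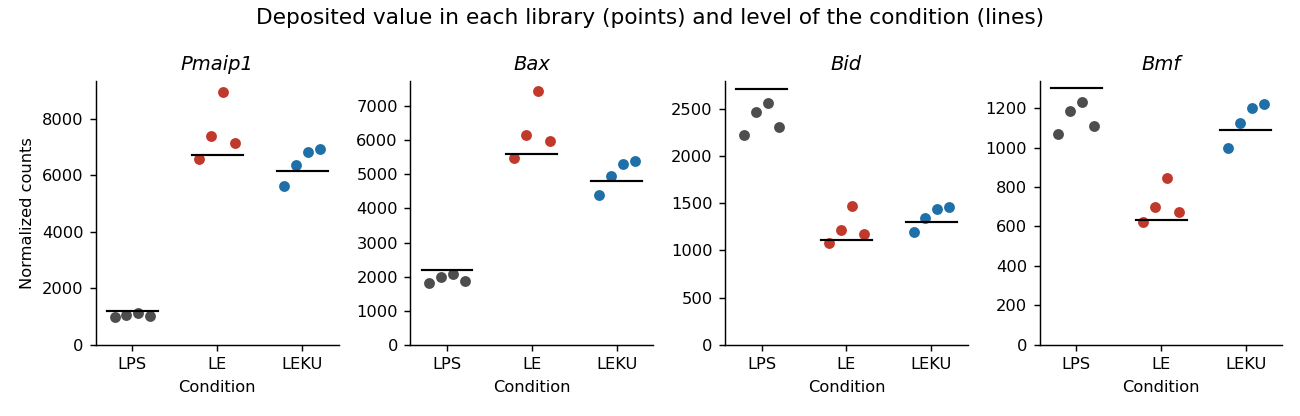
Deposited normalized counts (vertical axes, from 0) of Pmaip1, Bax, Bid and Bmf in the 4 libraries of each condition (points, replicates 1 to 4 from left to right) and the level of the condition after division by library size (black lines). The points of LPS lie under their line because the size factors of the LPS libraries were 0.819 to 0.945. The 4 points of a condition are 1 fitted mean times 4 size factors, so their scatter is not replicate error. The lines stand at 1181, 6731 and 6162 for Pmaip1 and at 1304, 635 and 1088 for Bmf.

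Of the BH3-only genes, Pmaip1 had the largest difference. Pmaip1 encodes Noxa, which binds Mcl1. The deposited values of Pmaip1 were 967, 1073, 1116 and 1006 with LPS, 6590, 7386, 8945 and 7160 in LE, and 5642, 6363, 6816 and 6929 in LEKU. The levels were 1181, 6731 and 6162, lowest with LPS. The log2 difference of LE to LPS was 2.51 (2.46 to 2.56), or 5.70-fold, and 545 of the 15571 genes had a higher one.

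Bbc3 encodes Puma, which binds all the main pro-survival relatives. In the deposited table Bbc3 was at 403.4, 447.5, 465.5 and 419.5 with LPS, 2079, 2330, 2822 and 2258 in LE, and 2488, 2805, 3005 and 3055 in LEKU. The levels were 492, 2123 and 2717, so that, unlike Bax and Pmaip1, Bbc3 had its highest level with the inhibitor present. The log2 difference of LE to LPS was 2.11 (2.03 to 2.18), or 4.31-fold.

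Bcl2l11 encodes Bim, an activator of the effectors. In the deposited table Bcl2l11 was at 4158, 4613, 4799 and 4324 with LPS, 9126, 10228, 12388 and 9915 in LE, and 9236 to 11341 in LEKU. The levels were 5076, 9321 and 10086, lowest with LPS. The log2 difference of LE to LPS was 0.88 (0.85 to 0.90), or 1.84-fold and so within 2-fold. It was past 2-fold, at 1.01, 1.14 and 1.22, with library totals, quantile normalization and the columns as deposited.

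Bid, whose protein links death receptors to mitochondria once caspase-8 has cut it, was the member with the lowest difference. The libraries held 2221, 2464, 2564 and 2310 normalized counts with LPS, 1082, 1213, 1469 and 1176 in LE, and 1193, 1345, 1441 and 1465 in LEKU. The levels were 2712, 1105 and 1302, a log2 difference of -1.29 (-1.34 to -1.25) for LE to LPS, with 2.99% of the genes past the filter below it. In the columns as deposited it was -0.95, within 2-fold. Bid shares exonic bases with Bcl2l13 on the other strand, which was at levels of 2362, 2470 and 2471.

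Bmf encodes a BH3-only protein known for binding the cytoskeleton. Its deposited values were 1068, 1185, 1232 and 1110 with LPS, 622, 697.1, 844.3 and 675.8 in LE, and 996, 1123, 1203 and 1223 in LEKU. The levels were 1304, 635 and 1088, lowest in LE. The log2 difference of LE to LPS was -1.04 (-1.11 to -0.97), and the interval reached inside 2-fold. It was -0.90 with library totals and -0.69 in the columns as deposited, and it was also within 2-fold with quantile normalization.

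Bad, a sensitizer held in check by phosphorylation, had levels of 318, 370 and 401. Its log2 difference of LE to LPS was 0.22 (0.11 to 0.33). Bad shares exonic bases with Gpr137 on the other strand, at levels of 272, 228 and 386. Bik, a BH3-only protein of the endoplasmic reticulum, was at levels of 7.37, 16.1 and 9.25, resting on 26, 72 and 39 reads summed over 4 libraries. Its log2 difference of LE to LPS was 1.03, and the counting interval of the ratio ran from 0.46 to 1.83. Since Bik passed the filter only through LE, where it was high, its difference was in part fixed by the filter. With a pseudocount of 5, and with quantile normalization (0.50), it was within 2-fold. Hrk, a BH3-only gene best known from neurons, was at levels of 3.28, 3.45 and 3.77, with 12, 15 and 16 summed reads. The interval of its log2 ratio of LE to LPS ran from -1.21 to 1.21, so no difference within that range was detectable at this depth.

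**Figure D2:**
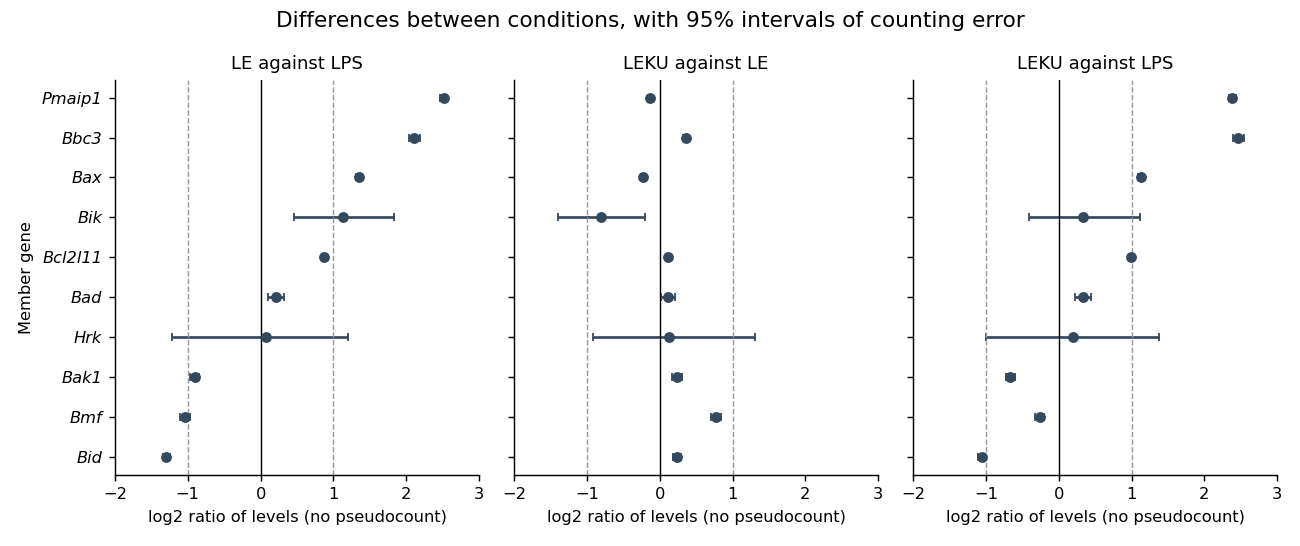
Log2 ratio of levels (horizontal axes, no pseudocount) of the 10 members (vertical axis) in the 3 comparisons, with 95% intervals of counting error as bars and 2-fold as dashed lines. In LE against LPS the members spread from -1.30 for Bid to 2.51 for Pmaip1, while in LEKU against LE every point lies within 2-fold. The 3 comparisons share their libraries.

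Division by exon length places the members on 1 scale. Bax had the highest level per kilobase in all conditions, at 1396 with LPS, 3560 in LE and 3047 in LEKU. With LPS it was followed by Bid at 764, Bcl2l11 at 632, Bak1 at 618, Pmaip1 at 432, Bmf at 248, Bbc3 at 232, Bad at 124, Bik at 4.63 and Hrk at 0.58. The neighbours Bcl2l11 and Bak1 did not differ beyond counting error there, and neither did Bmf and Bbc3.

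In LE the order was Bax, Pmaip1 at 2464, Bcl2l11 at 1161, Bbc3 at 1000, Bak1 at 330, Bid at 311, Bad at 145, Bmf at 121, Bik at 10.1 and Hrk at 0.61. The counting intervals of Bak1 and Bid overlapped. In LEKU Bbc3 was at 1279 and Bcl2l11 at 1256 with overlapping intervals, and Bmf, at 207, was again above Bad, at 157. With the longest transcript in place of all exons, the order with LPS was the same for all 10 members. With that length Bid was above Bak1 in LE and LEKU, Bcl2l11 was above Bbc3 in LEKU and Bad was above Bmf there.

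The makeup of the pool of pro-death mRNA differed between conditions. The levels per kilobase of the 10 members summed to 4452 with LPS, 9103 in LE and 8964 in LEKU. Bax made up 31.4%, 39.1% and 34.0% of this sum. Pmaip1 went from 9.71% with LPS to 27.1% in LE and 25.2% in LEKU, and Bbc3 from 5.21% to 11.0% and 14.3%. Bid made up 17.2% with LPS and 3.42% in LE, and Bak1 13.9% and 3.63%. Bcl2l11 had a share of 14.2%, 12.8% and 14.0%. These sums and shares used the length of all exons and were not computed with the longest transcript. The ratio of Pmaip1 to Bmf per kilobase was 1.74 with LPS, 20.4 in LE and 10.9 in LEKU. That pair was chosen with earlier results known and joins the most raised member to a lowered one, so its ratio restates their differences. The ratio of Bcl2l11 to Bmf was 2.55, 9.60 and 6.07 in the same order.

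**Figure D3:**
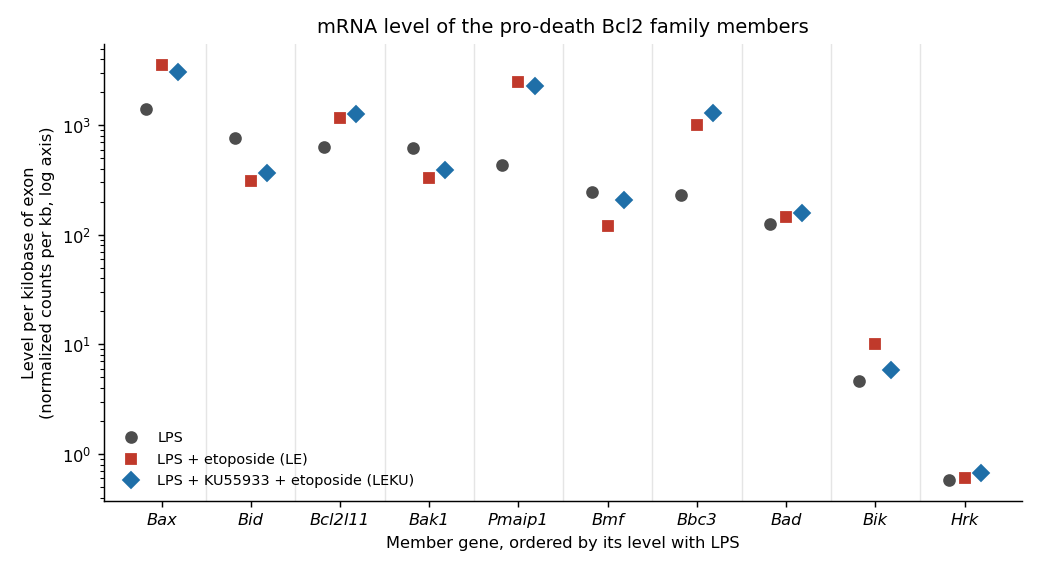
Level per kilobase of exon (vertical axis, logarithmic) of the 10 members in LPS, LE and LEKU, ordered from left to right by the level with LPS. Bax is highest in each condition, Pmaip1 stands at 432, 2464 and 2255, and Bik and Hrk lie far below the other members.

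LEKU was then compared with LE, which asks how the same genes stood when ATM was inhibited before etoposide. None of the 9 members was past 2-fold in either direction. Of all genes, 1.75% were higher and 4.62% lower past 2-fold, so a count of 0 among 9 is near this background. The median log2 difference of the members was 0.12, beside -0.04 over all genes, and 6 were higher and 3 lower in LEKU. The median and the 3 lower members include Bik, which passed the filter only through LE, where it was high. Of the genes past 2-fold, 27.5% were higher, a share that was 39.5% with quantile normalization and 17.8% in the columns as deposited.

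Bmf had the largest difference. It was higher in LEKU by 0.77 on the log2 scale (0.71 to 0.84), or 1.71-fold, and 576 of the 15571 genes had a higher difference. Bbc3 was higher by 0.36 (0.32 to 0.40), Bak1 by 0.24 (0.17 to 0.30) and Bid by 0.24 (0.18 to 0.29). Bcl2l11 and Bad were higher by 0.11 and 0.12. The members with a lower level in LEKU were Bax at -0.22 (-0.25 to -0.20), Pmaip1 at -0.13 (-0.15 to -0.10) and Bik at -0.74. Bik had 72 summed reads in LE and 39 in LEKU, and the counting interval of its ratio, -1.39 to -0.21, ran past 2-fold. Since Bik passed the filter only through LE, its lower level in LEKU was in part fixed by the filter. All of these differences, without their intervals, are within 2-fold.

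**Figure D4:**
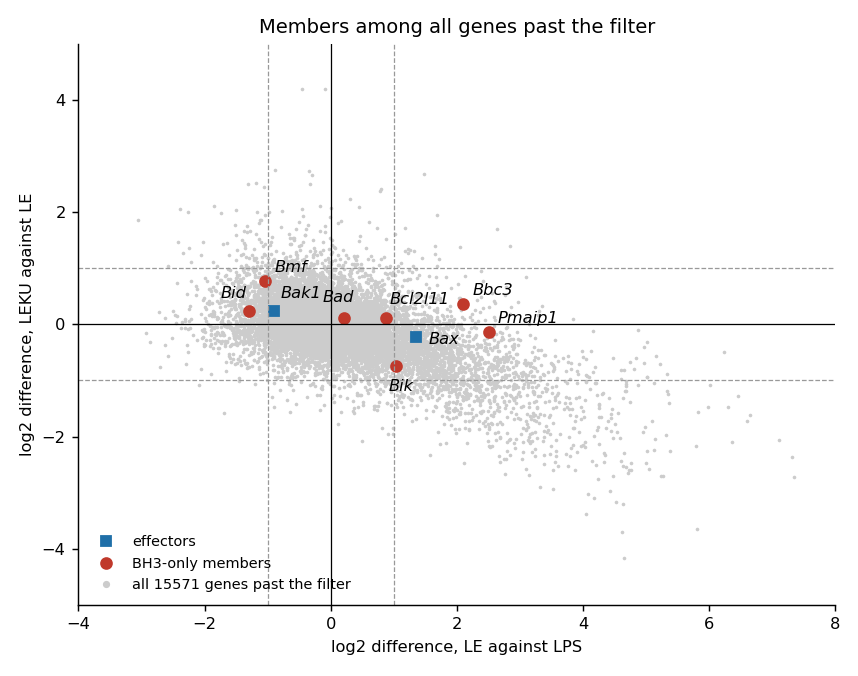
Log2 difference of LE to LPS (horizontal axis) and of LEKU to LE (vertical axis) for 15571 genes (grey points), with the effectors as blue squares and 7 BH3-only members as red circles; dashed lines mark 2-fold. Both axes contain the LE libraries, so the axes are not independent. Bbc3 lies right of the line at 2-fold and above 0, and Bmf lies left of the line and nearest to the upper one.

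LEKU was last compared with LPS alone. Bbc3, Pmaip1 and Bax were higher past 2-fold and Bid was lower past 2-fold, 3 and 1 of 9 members, where 10.9% and 6.07% of all genes were. Bbc3 was higher by 2.46 on the log2 scale (2.39 to 2.54), or 5.52-fold, and 207 genes had a higher difference. Pmaip1 was higher by 2.38 (2.34 to 2.43), with 238 genes above it, and Bax by 1.13 (1.09 to 1.16). Bcl2l11 was at 0.99 (0.97 to 1.02), on the edge of the rule, and was past 2-fold with each of the 5 other scalings tried. Bid was at -1.06 (-1.11 to -1.01) and came within 2-fold with library totals (-0.87), quantile normalization (-0.92) and the columns as deposited (-0.81). Bak1 was at -0.66 and Bmf at -0.26. Of all genes past 2-fold in this comparison, 64.2% were higher, a share that was 54.3% with quantile normalization, 78.1% with library totals and 81.9% in the columns as deposited. Bad was at 0.33. Bik was at 0.29, with a counting interval of the ratio from -0.41 to 1.11. These values share the LPS and LEKU libraries with the comparisons above and are no further evidence for them.

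The genes with the pattern nearest to the leading members were found by the distance between log2 levels, centred for each gene, over the 3 conditions, among 10861 genes with a mean level of at least 100. For Pmaip1 these were Nr4a1 (distance 0.065), Psrc1 (0.074) and Dos (0.13). Nr4a1, an immediate early gene of lymphocyte activation, was at levels of 1340, 7935 and 6821. For Bbc3 they were Chrnb2 (0.036), Kdm6b (0.10) and Crip3 (0.13). Kdm6b, a demethylase of histone H3, was at levels of 725, 3026 and 3619.

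The other genes of the pathway were followed by lists. Of 8 pro-survival genes 7 passed the filter. In LE against LPS 6 of these were lower and 1, Bcl2l1, was higher. Bcl2 alone was past 2-fold, and lower, where 6.14% of all genes were lower past 2-fold. Bcl2 was at levels of 5933, 1737 and 1414, a log2 difference of -1.77 for LE to LPS. Bcl2l2, its relative Bcl-w, was at 760, 479 and 611. The pro-survival levels summed to 28952, 21019 and 18378. The median difference was -0.37 in LE against LPS and 0.23 in LEKU against LE, beside -0.03 and -0.04 over all genes. Of 6 further relatives 5 passed, none past 2-fold in any comparison. Of all genes, 14.1% were higher and 6.14% lower past 2-fold in LE against LPS. The shares were 1.75% and 4.62% in LEKU against LE, and 10.9% and 6.07% in LEKU against LPS. A count of 0 among 5 is near these shares. The relatives included Bcl2l12 at 285, 153 and 166 and the mitophagy receptor Bnip3 at 1509, 1039 and 871. Bcl2l14, at the low levels of 27.8, 26.4 and 53.6, was on the edge of the rule in LEKU against LE, at 0.997.

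Downstream of the members, all 17 genes read of the apoptosome and of mitochondrial release passed the filter. In LE against LPS 2 of them were higher past 2-fold and 2 lower, with a median of -0.04. Of all genes past the filter, 14.1% were higher and 6.14% lower past 2-fold, so the higher count is near that share. The higher ones were Apaf1, the scaffold of the apoptosome, at 2536, 7033 and 4307, and the nuclease Dffb at 545, 3895 and 1814. The lower ones were Casp9, the initiator caspase that Apaf1 recruits, at 1019, 474 and 636, and the protease Htra2 at 1249, 582 and 1018. In LEKU against LE, Dffb alone was past 2-fold, at -1.10, where 4.62% of all genes were lower past 2-fold.

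The 18 p53 target genes read outside the family all passed. In LE against LPS 15 were higher and 0 lower past 2-fold, with a median of 2.87. Of all genes, 14.1% were higher and 6.14% lower past 2-fold. Plk2 was at 262, 9812 and 5997, and the cell cycle inhibitor Cdkn1a at 411, 13348 and 10688. In LEKU against LE 16 of the 18 were lower and 2 higher, 2 of them lower past 2-fold, with a median of -0.62. In LEKU against LPS 15 were still higher past 2-fold, with a median of 2.20, where 10.9% of all genes were. Of the 12 regulators of member genes 11 passed. In LE against LPS 14.1% of all genes were higher and 6.14% lower past 2-fold, and of these 11 regulators 1 was higher and 1 lower. These were the kinase Chek2 at 864, 1960 and 1121 and Myc at 3754, 1559 and 1717. In LEKU against LE the stress factors Ddit3 (721, 701 and 1566) and Atf4 (8961, 5546 and 11105) were higher past 2-fold. Trp73 (40.8, 68.2 and 29.6) was lower past 2-fold. Of all genes, 1.75% were higher and 4.62% lower past 2-fold there. The mRNA of p53 itself, Trp53, was at 5935, 5495 and 4926.

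**Figure D5:**
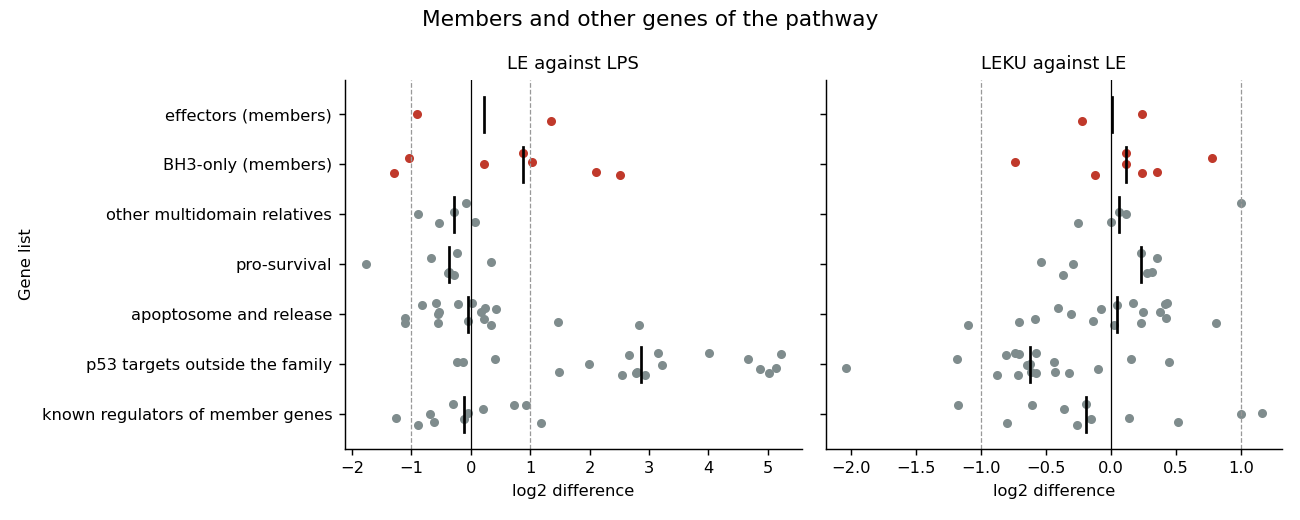
Log2 differences (horizontal axes) of the genes of each list that passed the filter (points, members in red) with the median of the list (black bars) in LE against LPS and in LEKU against LE; dashed lines mark 2-fold. The p53 targets outside the family have medians of 2.87 and -0.62, and the BH3-only members 0.88 and 0.12. The BH3-only medians include Bik, which passed the filter only through LE, where it was high.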

How the data were processed

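Splenic B cells were profiled by polyA mRNAseq in 12 libraries, 4 in each of 3 conditions, grouped by their titles. The authors trimmed reads with Trim Galore and cutadapt 1.2.1, mapped them with TopHat2 2.0.12 to GRCm38, counted them with HTSeq and fitted DESeq2 1.6.3. They deposited a signal table of normalized counts, which was tested here and found to hold the fitted condition mean times the library size factor. By default the authors' version of DESeq2 moderates fold changes toward 0, and whether it did so here is not given in the sources used here. The deposited comparison tables hold fold changes, standard errors, test statistics and p-values, none of which were used; only the authors' mean signal of each gene was taken, to recover the size factors by regression over 5421 genes with a mean of at least 1000. The recovered means were 94.1% to 100.2% of the authors' means.

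The model test planned per gene needs spread between replicates and was replaced by the 2-fold rule on log2(level + 1), with a level of at least 10 in at least 4 libraries. Counting intervals are exact Clopper-Pearson intervals at 95%. They use fitted means times size factors as reads, and cover counting error only. The scripts were tested on simulated data with known differences. Lengths and overlaps were from GENCODE M21 (GRCm38). Scripts ran in Python 3.11.15 with pandas 2.3.3 for tables, scipy 1.17.1 for intervals, numpy 2.4.6 for regression and matplotlib 3.10.9 for plots.

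Every member was named, as were the 2 genes of each other list with the largest absolute LE to LPS difference and a mean level of at least 100, and the 3 genes nearest in pattern to the 2 members with the largest difference. Other list genes named are those past 2-fold where a count was small, and Bcl2l1, Bcl2l14 and Trp53, chosen after their values were seen. The members, lists and pairs for ratios were chosen with earlier results of these data known. Of the listed genes outside the members, 2 are not reported here and were left out of the counts of their lists. Other scalings, pseudocounts, filters and folds were tried.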

Additional observations from a re-analysis of the deposited data

How the results depend on the processing

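No paired analysis was possible because the deposited columns are fitted means of a condition times a library factor and hold no deviation of single libraries. For the same reason leaving out each replicate moved no value: with each of replicates 1 to 4 left out, LE against LPS kept 4 members higher and 2 lower past 2-fold, which says nothing about stability. Members lower past 2-fold in LE against LPS numbered 2, but 1 with library totals, 1 with quantile normalization and 0 in the columns as deposited, where 4.35%, 8.68% and 2.57% of all genes were lower, beside 6.14%. In LEKU against LPS they numbered 1, but 0 under each of these 3 scalings, where 3.97%, 6.97% and 3.44% of all genes were lower, and 2 with a fold of 1.5, where 16.2% were. With a fold of 1.5, LEKU against LE had 2 members past it, 1 higher (Bmf) and 1 lower (Bik), where 7.12% of all genes were higher and 11.7% lower; Bik passed the filter only through LE, where it was high. Library totals raised the median difference of all genes by 0.14 in LE against LPS and 0.18 in LEKU against LPS, and the columns as deposited by 0.34 and 0.24. With quantile normalization Hrk, in LE against LPS (-0.36) and LEKU against LPS (-0.14), and Bik, in LEKU against LPS (-0.06), had the other sign; none of these was past 2-fold. Of 210 values of single members under other scalings or pseudocounts, 150 moved by less than their counting interval and 60 by more, and no member past 2-fold changed direction. Size factors computed again on the fitted values, and a level of 10 in every condition, were alternatives chosen after seeing the data. Depth limits Bik and Hrk, with at most 72 and 16 summed reads in a condition.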
